A study of Mus musculus with 4 samples.

Results

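Between the positions of 6 and 19 Mb on mouse chromosome 9 (mm10) lies a stretch that holds the transcription cofactor gene Yap1 and, next to it, the inhibitor of apoptosis genes Birc2 and Birc3. The 10 genes described here (Yap1, Birc2, Birc3, Tmem123, Dcun1d5, Mre11a, Cwc15, Taf1d, Med17 and Mtmr2) are part of the 75 genes that start in this stretch, among 24054 genes in the count tables, and all 10 passed the filter on low counts. They were chosen by their gene symbols, and the stretch itself was chosen from the measured ratios of the Morc3 rescue clones to wild type in these same libraries. The ratios of the 10 genes to wild type are therefore given as a description, without a test.

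RNA was sequenced from 4 cultures of mouse embryonic stem (ES) cells, which are pluripotent cells grown here without feeder cells in serum with LIF. Morc3 is a protein that silences endogenous retroviruses, and the study made the rescue clones to ask whether a Morc3 cDNA reverses the changes in transcription seen in Morc3 ko cells. The wild-type group was 1 library of the line wt26. The Morc3 rescue group was 1 library each of the lines T131-3C, T131-3D and T131-3M, called clones 3C, 3D and 3M. All 3 clones descend from Morc3 ko line KO27-2, itself a single clone derived from wt26, which received a Morc3 cDNA on a PiggyBac transposon and was selected with puromycin. The clones therefore share the history of 1 ko line, and neither a ko library nor a wild-type clone that went through transfection and selection was analysed here, so effects of Morc3, of cloning and of selection cannot be told apart. The clones are separate lines, but nothing states whether each RNA came from more than 1 culture, and the spread between libraries is the spread between clones.

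Wild type gave 18789457 read pairs assigned to genes, and the clones gave between 13620914 and 15479190. Of all read pairs, 14.5% were unmapped for wild type, and between 20.96% and 23.01% for the clones, a difference whose part in the results below was not tested. Levels are given as CPM, the counts scaled to libraries of equal size with edgeR's TMM factors, which set the bulk of genes equal between libraries. Morc3 itself was at 161 CPM in wild type against 655, 497 and 609 CPM in clones 3C, 3D and 3M, higher than wild type in 3 of 3 clones (log2 fold change 1.87, Benjamini-Hochberg adjusted p = 0.11 in edgeR's quasi-likelihood test). The 10 ES cell markers were high in every library, summing to 5213 CPM for wild type and to 5389 to 5830 CPM for the clones. Fibroblast or feeder markers summed to 37.3 CPM for wild type and to 25.6 to 50.3 CPM for the clones, with Col3a1, Dcn, Lum and Fap at 0 in all libraries, and primitive endoderm, trophoblast and primed epiblast markers summed to 7.76, 3.83 and 249 CPM for wild type, with clones at 7.08 to 11.3, 2.82 to 10.1 and 162 to 204 CPM. Most of the primed epiblast sum came from Dnmt3b (232 CPM in wild type), and most of the fibroblast sum from Thy1 (31.7 CPM in wild type). In such bulk samples, fewer cells of a type and less RNA per cell cannot be told apart.

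YAP1 is the cofactor that the Hippo kinase cascade keeps out of the nucleus. When it enters, it binds TEAD transcription factors and turns on genes of growth and of the cytoskeleton. BIRC2 and BIRC3 are ubiquitin ligases that hold back cell death downstream of the TNF receptor and restrain non-canonical NF-kappaB signalling. In the human genome their genes are also neighbours, on chromosome 11, in a region that is amplified in some tumours. In mouse ES cells, Yap1 and Tead proteins are studied as regulators of self-renewal and differentiation.

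The starts of Yap1, Birc2 and Birc3 differ in sequence. Shown are the 250 bases upstream of each RefSeq transcript start (RefSeq, GRCm38.p6), 5′ to 3′ on the gene's own strand. All 3 genes lie on the minus strand, and these sequences are shown because the genes give the stretch its name and span the lowest and the highest ratio to wild type of the 10 genes. Capitals mark matches to GGGCGG (a GC box), CCGGAA (an ETS core) and GGAATG (a TEAD core), on either strand. The windows are chr9:8004597-8004846 for Yap1, chr9:7837058-7837307 for Birc2 and chr9:7873171-7873420 for Birc3.
Yap1: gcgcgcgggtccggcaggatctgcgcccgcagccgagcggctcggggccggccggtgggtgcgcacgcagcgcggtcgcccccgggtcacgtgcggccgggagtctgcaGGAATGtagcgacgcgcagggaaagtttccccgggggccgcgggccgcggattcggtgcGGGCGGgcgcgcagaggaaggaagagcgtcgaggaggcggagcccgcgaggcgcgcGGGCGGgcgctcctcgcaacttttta
Birc2: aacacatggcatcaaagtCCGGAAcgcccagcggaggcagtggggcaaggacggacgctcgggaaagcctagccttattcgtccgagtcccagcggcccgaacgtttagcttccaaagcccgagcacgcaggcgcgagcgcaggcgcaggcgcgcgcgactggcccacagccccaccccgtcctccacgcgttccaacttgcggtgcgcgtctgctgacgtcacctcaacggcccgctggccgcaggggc
Birc3: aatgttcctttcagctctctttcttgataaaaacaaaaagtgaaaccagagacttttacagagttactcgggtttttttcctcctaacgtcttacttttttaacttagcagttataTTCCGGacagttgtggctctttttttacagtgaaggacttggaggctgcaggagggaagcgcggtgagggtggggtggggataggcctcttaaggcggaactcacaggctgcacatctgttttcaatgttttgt

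The Yap1 window holds 76.4% G and C, with 44 CpG dinucleotides, 2 GC boxes and 1 TEAD core. The Birc2 window holds 68.4% G and C with 31 CpG dinucleotides, and the Birc3 window 43.6% with 6 CpG dinucleotides, the same number as the median of all 32851 upstream windows of this length, whose median G and C content is 52.4%. Birc2 and Birc3 each hold 1 ETS core and no GC box. Over the windows of all 10 genes, G and C content ran from 42.0% (Dcun1d5) to 76.4% (Yap1). GC boxes were found in 6 of the 10 windows and in 32.7% of all windows, ETS cores in 5 and in 12.0%, TEAD cores in 3 (Yap1, Cwc15 and Mtmr2) and in 12.6%, and CCAAT boxes in 4 and in 33.8%. TATAAA was in 0 of the 10 windows and in 12.4% of all, and the kappaB motif in 0 and in 3.90%. For Taf1d and Mtmr2 the RefSeq transcript start lies 261 and 1919 bases inside the annotated gene. A match describes letters in a window and nothing about binding.

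Yap1 (chr9:7931999-8004638, minus strand) had the highest CPM of the 10 genes. It was counted 3479 times in wild type against 3940, 4069 and 4688 times in clones 3C, 3D and 3M, which is 182 CPM against 292, 280 and 303 CPM. All 3 clones were above wild type, as were those of 28.7% of the 13267 genes tested, while 28.4% were below it in all 3. The stretch was chosen for such ratios, so for each of the 10 genes the lack of overlap is a description only. The clones averaged 292 ± 11.5 CPM (SD, n = 3), and the ratio to wild type was 1.60 ± 0.06. The spread between clones was 3.94% of the mean. The wild-type side rests on 1 library, so its own spread is unknown here, for Yap1 and for each gene below.

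Birc2 (chr9:7818226-7837131, minus strand) encodes cIAP1. Its level was 44.6 CPM in wild type against 61.3, 64.9 and 60.0 CPM in the clones. The mean ratio of 1.39 ± 0.06 was the lowest of the 10 genes, and again no clone reached down to wild type. Birc3 (chr9:7847468-7873205, minus strand) encodes cIAP2 and lies beside its paralog Birc2. It had 97 counts in wild type against 108, 152 and 149 in the clones, or 5.09 CPM against 8.01, 10.4 and 9.62 CPM. Its mean ratio of 1.84 ± 0.24 was the highest of the 10 and also the least precise, and the 95% counting interval (Clopper-Pearson, on the counts of the clone and wild type) ran from 1.19 to 2.09 in clone 3C and from 1.58 to 2.68 in clone 3D. Reads that fit both Birc2 and Birc3 were not counted by the authors' pipeline, so the split between these paralogs is uncertain.

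Tmem123 (chr9:7764077-7794333, plus strand) encodes a mucin-like membrane protein also called porimin. It was at 15.6 CPM in wild type against 24.7, 29.5 and 27.9 CPM in the clones, a mean ratio of 1.75 ± 0.16. Between 7.93% and 11.4% as many read pairs lay on its other strand, more than for any other of the 10 genes, and these were not counted. Dcun1d5 (chr9:7176590-7220880, plus strand) encodes a co-factor that helps attach NEDD8 to cullins. It was at 48.9 CPM in wild type against 74.5, 72.4 and 69.1 CPM in the clones, a mean ratio of 1.47 ± 0.06. For both genes the lowest clone lay above wild type. Dcun1d5 shares 1717 bases with Dync2h1 on the opposite strand.

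Across a gap lie the other 5 genes. Mre11a (chr9:14784654-14837125, plus strand) encodes the nuclease of the MRN complex, which senses DNA double-strand breaks. Mre11a was at 83.7 CPM in wild type against 121, 130 and 131.4 CPM in the clones, a mean ratio of 1.52 ± 0.07. Cwc15 (chr9:14500604-14510620, plus strand) encodes a protein of the activated spliceosome. It stood at 74.7 CPM in wild type against 119, 130 and 111 CPM in the clones, a mean ratio of 1.61 ± 0.12. Clones and wild type did not overlap for either gene, and the clones spread more for Cwc15 (7.67% of the mean) than for Mre11a (4.57%).

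Taf1d (chr9:15305953-15316997, plus strand) encodes a subunit of SL1, the factor that brings RNA polymerase I to ribosomal DNA, and it hosts small RNA genes. It had 162 CPM in wild type against 240, 240 and 260 CPM in the clones, a mean ratio of 1.52 ± 0.07. Med17 (chr9:15260351-15279906, minus strand) encodes a core subunit of Mediator, the bridge between transcription factors and RNA polymerase II. Med17 had 69.7 CPM in wild type against 98.5, 99.9 and 106 CPM in the clones, a mean ratio of 1.46 ± 0.06. Mtmr2 (chr9:13747260-13808896, plus strand) encodes a lipid phosphatase that acts on 3-phosphorylated phosphoinositides. Mtmr2 had 68.5 CPM in wild type against 96.5, 100 and 105 CPM in the clones, a mean ratio of 1.47 ± 0.06. In all 3 genes every clone exceeded wild type. Mtmr2 overlaps Cep57 by 1114 bases, and Taf1d overlaps 4931406C07Rik by 496 bases, in both cases on the opposite strand, and Taf1d overlaps Mir7650 too.

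**Figure D1:**
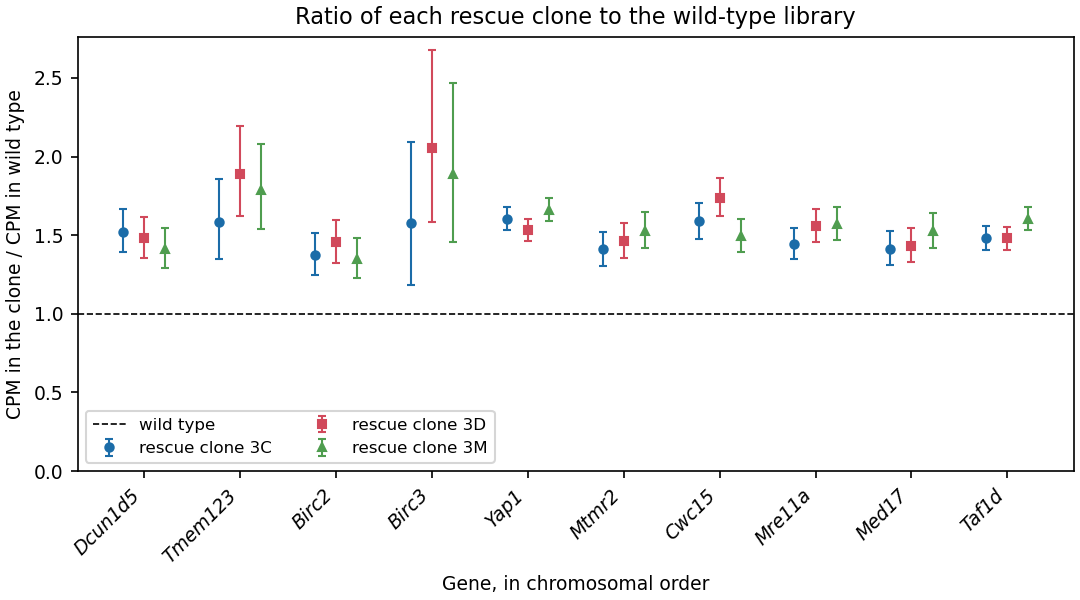
Ratio of the CPM in each rescue clone (3C, 3D, 3M) to the CPM in the single wild-type library, for the 10 genes in chromosomal order. Bars are 95% counting intervals, which cover counting error only, and the dashed line marks wild type at 1. The points lie between 1.35 and 2.05, and the widest bars belong to Birc3.

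As a group, the 10 genes had mean ratios between 1.39 and 1.84, and fitted log2 fold changes between 0.48 (Birc2) and 0.88 (Birc3), with a median of 0.61. Clones 3C, 3D and 3M had median log2 differences from wild type of 0.59, 0.59 and 0.63 over the 10 genes. All 10 genes were above wild type in all 3 clones, as were 28.7% of the 13267 genes tested, while 28.4% were below it in all 3. Because the stretch was chosen for such ratios, nothing is read from that count. The 5 genes from Dcun1d5 to Yap1, within 828 kb, had a median ratio of 1.60, and the 5 genes from Mtmr2 to Taf1d, within 1570 kb, had a median ratio of 1.52. The ranges of these blocks, 1.39 to 1.84 and 1.46 to 1.61, overlap.

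Levels of different genes were compared as CPM per kb of exon. Cwc15 was the highest, at 76.4 in the mean of the clones and 47.6 in wild type. Yap1 followed at 31.5 and 19.7, then Taf1d at 27.5 and 18.1, Med17 at 24.0 and 16.5, and Dcun1d5 at 23.4 and 15.9. Mre11a stood at 21.5 and 14.1, Mtmr2 at 20.5 and 13.9, Birc2 at 13.6 and 9.73, Tmem123 at 8.81 and 5.03, and Birc3 last at 1.87 and 1.02. The order was the same in wild type and in the clones. Among neighbours in this order, the clones of Med17 and Dcun1d5 overlapped, as did those of Mre11a and Mtmr2, and these pairs do not differ beyond the spread. The genes covered a 40.9-fold range of levels in the clones, while their mean ratios to wild type ran from 1.39 to 1.84. Because the stretch was chosen from these ratios, nothing is read from how narrow their range is.

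**Figure D2:**
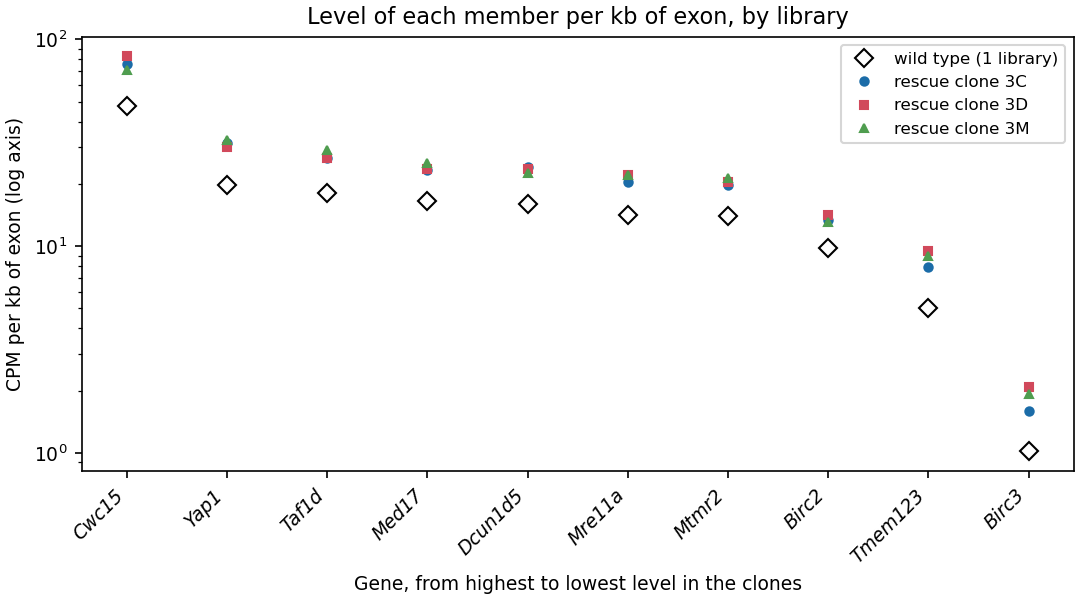
CPM per kb of exon (log axis) of the 10 genes in the wild-type library (open diamonds) and in the 3 rescue clones (filled symbols), ordered from Cwc15 (76.4 in the clones) to Birc3 (1.87). In each gene the 3 clones lie close together and above wild type.

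Differences among the clones were also tested. The stretch was chosen from the ratio of each clone to the same wild-type library, so this test is not independent of that choice. A choice of genes raised in every clone can favour small differences between clones, so nothing is read from the counts of 0 below. Each clone was compared with the other pair in edgeR's quasi-likelihood test over 13124 genes, with wild type left out and the lone clone assumed to vary like the others. For clone 3C, 0 of the 10 genes passed the adjusted p of 0.01 (Benjamini-Hochberg), against 0% of all genes tested, and 0 had an unadjusted p under 0.05, against 5.81% of all. For clone 3D, 0 of the 10 passed, against 1.31% of all genes (172 genes), and 0 had an unadjusted p under 0.05, against 12.6%. For clone 3M, 0 passed, against 0% of all genes, and 0 had an unadjusted p under 0.05, against 1.33%. DESeq2, limma-voom and the other alternatives called 0 of the 10 genes as well. The differences between a clone and the others ran from -0.33 to 0.24 on the log2 scale, both for Birc3, with standard errors between 0.071 (Yap1) and 0.26 (Birc3). Yap1 differed from the other clones by -0.09 ± 0.07 (SE) in clone 3D and by 0.08 ± 0.08 in clone 3M. Cwc15 had the smallest adjusted p of the 10, 0.45, in clone 3D, where it was 0.17 ± 0.09 above the others. A p above the threshold does not show that the clones are alike.

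The rest of the stretch holds 65 further genes, and 25 of these had enough counts to be tested, so 35 of all 75 genes were tested and 40 were not. Of those 40, 23 were at 0 in every library and none had more than 7 counts in any. The median log2 fold change of these 25 genes was 0.56. Of them, 20 were above wild type in all 3 clones, as were 28.7% of all genes tested. The stretch was chosen for such ratios, so nothing is read from this count or from that of all 35 tested genes. The 35 genes together also had a median of 0.56, and 30 were above wild type in all 3 clones. In clones 3C, 3D and 3M their median difference from wild type was 0.57, 0.57 and 0.56. The 5 genes that were not above wild type in every clone, 9230110C19Rik, Maml2, Piwil4, Gpr83 and Smco4, had at most 68 counts in a library. With a mean of at least 200 counts there were 18 tested genes in the stretch, with log2 fold changes between 0.48 and 0.92. Below that cutoff, Sesn3, Scarna9 and Jrkl, with means of 190.5, 115 and 107 counts, were lower, at 0.27, 0.27 and 0.39. Panx1 and Birc3, with means of 191 and 126.5 counts, were at 0.90 and 0.88.

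Outside the stretch, the 73 tested genes before 6 Mb and between 19 and 25 Mb centred on a log2 fold change of -0.01 (median). Of these 73, 16 (21.9%) were above wild type in all 3 clones, against 28.7% of all genes tested. Over the 655 tested genes further along chromosome 9 the median was 0.01. Within the stretch the median was 0.71 over 8 genes between 6 and 10 Mb, 0.51 over 6 genes between 10 and 14 Mb, 0.58 over 19 genes between 14 and 16 Mb and 0.50 over 2 genes from 16 Mb on. The limits of the stretch were set on these data, so the contrast with its surroundings is a description.

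**Figure D3:**
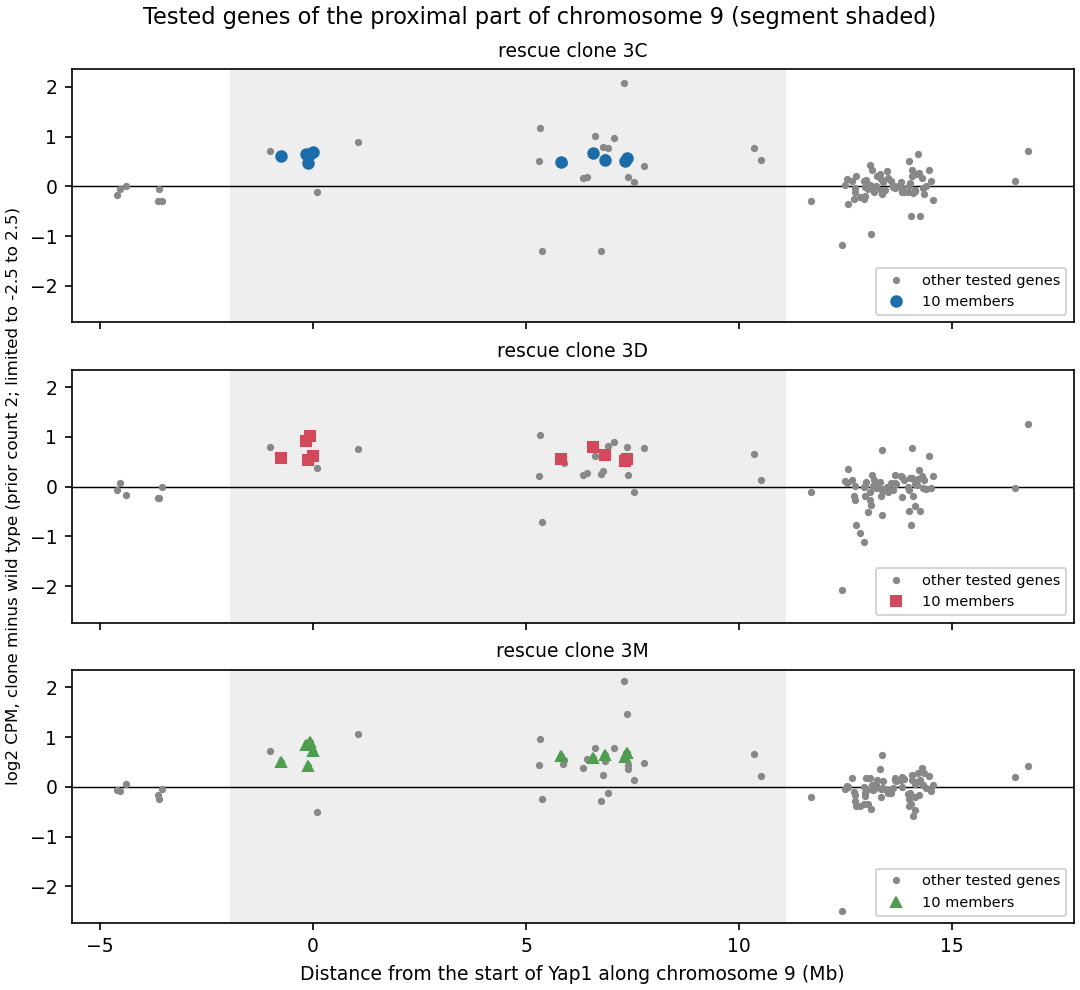
Difference in log2 CPM (prior count 2) between each rescue clone and wild type for every tested gene in the first 25 Mb of chromosome 9, against the distance in Mb of the gene's start from the start of Yap1. The stretch between 6 and 19 Mb is shaded, and coloured symbols mark the 10 genes, which lie near the clone medians of 0.59, 0.59 and 0.63, while the genes outside scatter around 0.

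At the proximal limit, the tested genes just outside were Kbtbd3 and Msantd4, with log2 fold changes of -0.19 and -0.11. Just inside were Dync2h1, which encodes a motor of ciliary transport, at 0.74, and the member Dcun1d5 at 0.56. Msantd4 had 697 counts in wild type against 402, 530 and 548 in the clones, and Dync2h1 had 677 in wild type against 782, 897 and 905 in the clones. Scaled for depth, the log2 differences from wild type of clones 3C, 3D and 3M were -0.29, -0.0048 and -0.05 for Msantd4 (fitted -0.11 ± 0.14, SE) and 0.71, 0.79 and 0.72 for Dync2h1. Between them lie 2.54 Mb with no tested gene. At the distal limit, Chordc1, a co-chaperone of HSP90, and Zfp558 were just inside, at 0.69 and 0.31, and Zfp317 and Zfp560 just outside, at -0.20 and -1.98. Zfp560 had 80 counts in wild type against 24, 13 and 9 in the clones. The tested genes nearest to the distal limit are 1.14 Mb apart. Inside the stretch, 4.004 Mb between Arhgap42 and Jrkl and 2.55 Mb between Slc36a4 and Chordc1 hold no tested gene, so the values there are unknown.

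Of the other tested genes in the stretch, Vstm5 had the highest log2 fold change, 1.82, but it had only 27 counts in wild type against 86, 31 and 102 in the clones. Scaled for depth this is 1.42 CPM in wild type against 6.38, 2.13 and 6.58 CPM in the clones, so clone 3D was the lowest of the clones and above wild type. Mir7650, at 1.14, overlaps Taf1d, and Ccdc82 was at 1.10. The lowest were Maml2, a Notch coactivator, at -0.77, Piwil4, a piRNA-binding protein of the germ line, at -0.35 and 9230110C19Rik at -0.05. Amotl1, which encodes an angiomotin that binds YAP1, also lies in the stretch. It had 566 counts in wild type against 808, 665 and 789 in the clones, or 29.7 CPM against 59.9, 45.7 and 50.9 CPM (log2 fold change 0.81 ± 0.17, SE).

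The genes that act with the 10 genes were followed in 9 lists of pathway and complex partners, which hold 193 tested genes outside the stretch. In edgeR's quasi-likelihood test of the clones against wild type, 0 of the 193 passed the adjusted p of 0.01, and the smallest adjusted p was 0.25. DESeq2, limma-voom and edgeR's legacy method also called 0. Over all genes, 0.00754% passed, that is 1 gene, the Y-linked Ddx3y, which was lower (log2 fold change -8.37, adjusted p = 0.0050) and is named here after its value was seen. At an unadjusted p under 0.05 there were 10 higher partners (5.18%) and 5 lower (2.59%), against 5.92% and 4.42% of all genes and 10.3% in both directions. Of the 10, 7 lie on chromosomes 13 and 14. The median log2 difference from wild type of all genes of chromosome 14 was 0.34, 0.34 and 0.35 in clones 3C, 3D and 3M, and that of chromosome 13 was 0.48, 0.03 and 0.48. The partners' median log2 fold change was 0.00 against 0.01 for all genes tested, and the medians of the 9 lists lay between -0.03 and 0.07. Leaving out clone 3D brought 5 partners (2.59%) past the threshold, all higher than wild type, beside 3.17% of all genes in the same fit, so the partners' share was not above that of all genes. These were Ripk1 (log2 fold change 1.18, adjusted p = 0.00040), Cyr61 (1.07, adjusted p = 0.0033), Ajuba (0.52, adjusted p = 0.0040), Ctgf (0.85, adjusted p = 0.0057) and Ptpn14 (0.55, adjusted p = 0.0081), of which Ripk1 and Ajuba lie on chromosomes 13 and 14. Errors of log2 fold changes given after ± are standard errors.

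**Figure D4:**
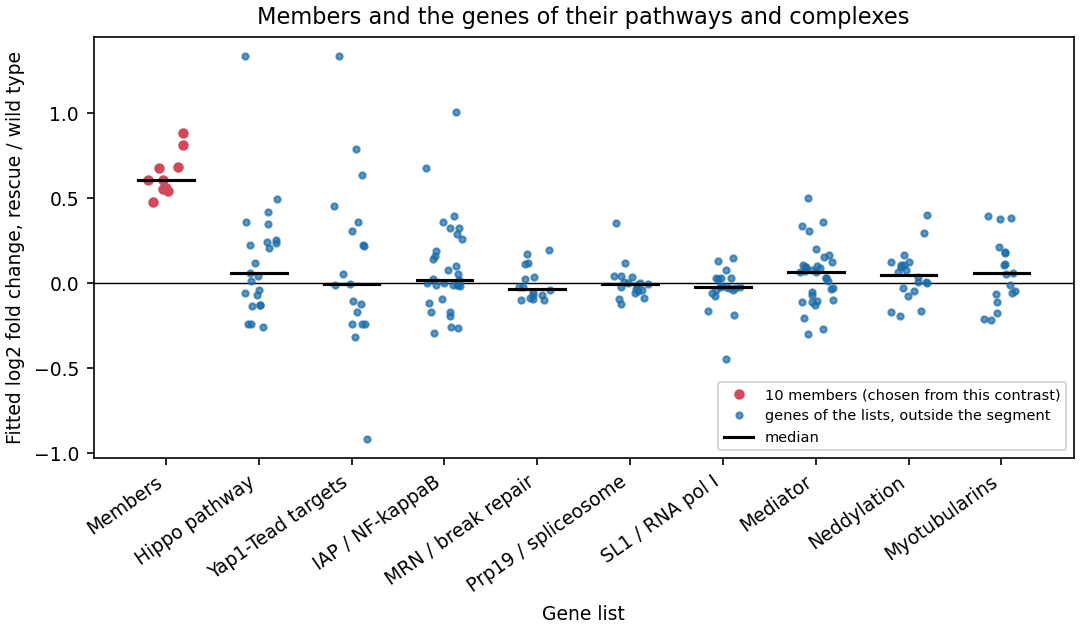
Fitted log2 fold change between the 3 rescue clones and wild type for the 10 genes (red, chosen from this contrast) and for the tested partners outside the stretch (blue) in 9 lists, with a black line at each median. The medians are 0.61 for the 10 genes and between -0.03 and 0.07 for the lists.

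Among the partners of Yap1, 7 of the 23 tested genes of the Hippo list were above wild type in all 3 clones and 7 below. Over all genes tested, 28.7% were above and 28.4% below. Tead1, the most abundant Tead gene here by CPM, was at 211 CPM in wild type against 190, 164 and 182 CPM in the clones (log2 fold change -0.24 ± 0.10, adjusted p = 0.48). Tead2 was at 0.04 and Tead4 at 0.25. Wwtr1, which encodes the YAP1 paralog TAZ, was at 0.35 (adjusted p = 0.51). Lats2, a kinase that phosphorylates YAP1, was at 3.25 CPM in wild type against 8.46, 9.62 and 6.65 CPM in the clones (1.34 ± 0.29, adjusted p = 0.25), and lies on chromosome 14.

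The 19 tested Yap1-Tead target genes had a median of -0.0050 in the clones against wild type, with 4 genes above wild type in all 3 clones and 4 below. Ctgf, a matricellular growth factor and a standard readout of YAP1, was at 13.6 CPM in wild type against 23.4, 14.4 and 25.8 CPM in clones 3C, 3D and 3M. Cyr61, of the same family, was at 8.49 CPM in wild type against 17.8, 8.25 and 17.9 CPM in the clones. For both genes clones 3C and 3M were high and clone 3D lay at the level of wild type. Axl, a receptor tyrosine kinase, went the other way, with 8.07 CPM in wild type against 4.90, 4.05 and 3.94 CPM in the clones (-0.91 ± 0.21, adjusted p = 0.27).

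Between clones, 2 of the 19 tested targets, Cyr61 and Ptpn14, passed the adjusted p of 0.01 in clone 3D and 0 in clones 3C and 3M. In edgeR's quasi-likelihood test of clone 3D against the other clones, Cyr61 was lower by -1.11 ± 0.19 on the log2 scale (SE, adjusted p = 0.0067, 8.25 against 17.9 CPM). Ptpn14, a phosphatase that binds YAP1, was lower by -0.67 ± 0.11 (adjusted p = 0.0058), and Wwc2, a Hippo scaffold, by -0.52 ± 0.09 (adjusted p = 0.0056). Ctgf missed the threshold at -0.77 ± 0.16 (adjusted p = 0.021), as did Gadd45b at -0.91 ± 0.23 (adjusted p = 0.050) and Amotl2 at -0.33 ± 0.11 (adjusted p = 0.14), and Nuak2 was at 0.87 ± 0.21 (adjusted p = 0.036). Of the 19 tested targets, 12 were lower in clone 3D than in the other clones. The share of all genes that were lower was not counted, so nothing is read from the 12. The median log2 difference of the 19 targets was -0.11, against -0.0010 for all genes tested, and the list was not tested as a set. Over all 193 partners, 3 passed the adjusted p of 0.01 (1.55%), close to the 1.31% of all genes, and 12.4% had an unadjusted p under 0.05 against 12.6%, so the shares were near those of all genes. Cyr61, Ptpn14 and Wwc2 passed in 4 of 8 alternatives and missed with unstranded counts, without a low-count filter, with DESeq2 and with limma-voom, with adjusted p-values of up to 0.16 for Cyr61, 0.12 for Ptpn14 and 0.056 for Wwc2, and all 3 stayed lower in clone 3D in all 8. They lie on chromosomes 3, 1 and 8. Cell state markers moved in the same comparison: clone 3D was higher in the ES cell marker Klf4 (0.58 ± 0.09, adjusted p = 0.0047) and in the primed epiblast marker Otx2 (2.30 ± 0.32, adjusted p = 0.0022), and lower in the ES cell marker Nanog (-0.40 ± 0.07, adjusted p = 0.0055). The other tested primed epiblast markers did not pass, with Dnmt3b at -0.43 ± 0.08 (adjusted p = 0.014) and Pou3f1 at 0.14 ± 0.25 (adjusted p = 0.91), and 0 of the 10 tested markers of fibroblasts, primitive endoderm and trophoblast passed. The other ES cell markers differed less than Klf4 and Nanog, from -0.24 (Dppa5a) to 0.28 (Tfcp2l1). Among these, Pou5f1 was at 0.09, Sox2 at 0.11 and Esrrb at 0.12. The marker values come from the main fit only, and values under the alternatives are not given for them. The number of genes called for clone 3D depended on the setting, as given below. The part of the marker differences in the target genes was not tested.

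**Figure D5:**
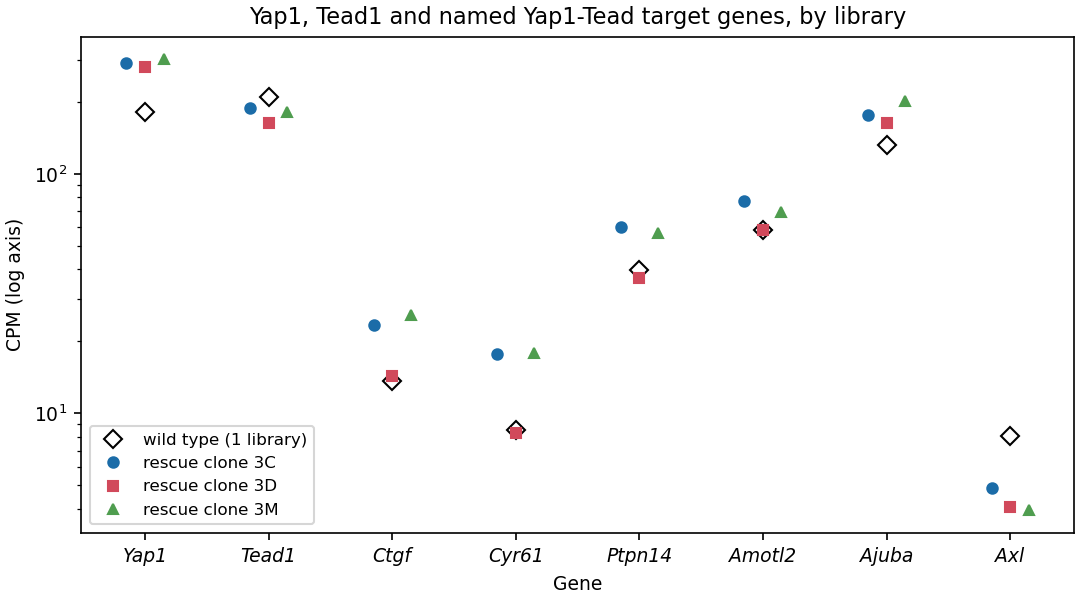
CPM (log axis) of Yap1, Tead1 and named Yap1-Tead target genes in the wild-type library (open diamonds) and in the 3 rescue clones. Yap1 is at 292, 280 and 303 CPM in clones 3C, 3D and 3M. Ctgf, Cyr61, Ptpn14 and Amotl2 are near wild type in clone 3D and higher in the other clones.

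None of the partners of the other genes passed the threshold against wild type. Among the 31 genes of cell death and NF-kappaB signalling, Xiap, the third classical IAP, had a log2 fold change of 0.14, and Traf2, which recruits the cIAPs to the TNF receptor, of -0.01. Ripk1, a kinase that the cIAPs ubiquitinate, was at 14.1 CPM in wild type against 31.7, 21.2 and 32.0 CPM in the clones (1.01 ± 0.27, adjusted p = 0.32), and lies on chromosome 13. Rad50 and Nbn, which form the MRN complex with Mre11a, were at 0.17 (adjusted p = 0.52) and -0.04. Rad50 was at 151 CPM in wild type against 163, 172 and 176 CPM in the clones. Prpf19 and Cdc5l, of the spliceosome's Prp19 complex, were at -0.04 and -0.03, and Cwc27, the gene of that list with the smallest p, was at 0.36 (adjusted p = 0.49). It lies on chromosome 13.

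The other SL1 subunits Taf1a, Taf1b, Taf1c and Tbp were at -0.02, -0.03, 0.03 and 0.07, and Polr2l, a subunit shared by the RNA polymerases, was at -0.45 (adjusted p = 0.48). Of the 32 Mediator genes, 14 were above wild type in all 3 clones and 7 below, against 28.7% and 28.4% of all genes. Med14 and Med6 were at 0.11 and 0.20, and Med4, on chromosome 14, at 0.36 (adjusted p = 0.32). Nedd8, the modifier that Dcun1d5 helps attach, was at 83.3 CPM in wild type against 114, 112 and 103 CPM in the clones (0.40 ± 0.09, adjusted p = 0.25), and also lies on chromosome 14. The Dcun1d5 paralog Dcun1d1 was at 0.16, Rbx1 at 0.01 and Cul3 at 0.07. Sbf1 and Sbf2, the catalytically inactive partners of Mtmr2, were at 0.10 and -0.17, and Mtmr6, on chromosome 14, was at 0.39 (adjusted p = 0.39).

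A ratio like that of the 10 genes was also seen elsewhere. The log2 fold change of Birc2, the lowest of the 10, was reached by 8.38% of all tested genes and by 7 of the 193 partners, Lats2, Tead3, Ctgf, Cyr61, Casp8, Ripk1 and Med12l. Among 7975 tested genes outside the stretch with a mean of at least 200 counts, those nearest to the 10 genes' median differences in the 3 clones were Mpzl2 on chromosome 9, Atxn7 on chromosome 14, Foxd3 on chromosome 4, Sppl3 on chromosome 5 and Tbc1d13 on chromosome 2, with root mean square distances between 0.025 and 0.049 on the log2 scale. Their own log2 fold changes lay between 0.56 and 0.60. Within a distance of 0.1 there were 32 of the 7975 genes (0.40%), 15 of them on chromosome 14. In the stretch, 8 of the 18 genes with as many counts lay within it. These 18 include all of the 10 genes but Birc3, and the 10 set the target, so the 8 are not comparable with the 0.40%.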

How the data were processed

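RNA was sequenced as paired 50-base reads from rRNA-depleted, directional libraries. The authors aligned them to mm10 with STAR (version and gene annotation not given in the sources used here) and deposited raw counts, without normalization, of read pairs with 1 mapping position on each gene, in an unstranded and 2 stranded columns. The reverse-strand counts were used, and forward-strand counts came to 1.26% to 1.31% of these. Lines that name no gene (unmapped, multimapping at 7.85% to 8.21% of read pairs, no feature at 23.6% to 24.7%, ambiguous) stayed out of library sizes and tests. Chi-square statistics per gene of between 7.50 and 11.4 between clones showed no library deposited in duplicate.

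The main test was edgeR 4.0.16 in R 4.3.3 (glmQLFit with legacy = FALSE, glmQLFTest), TMM scaling, the filterByExpr filter and Benjamini-Hochberg adjustment at 0.01, the threshold of the study, whose own tool, DESeq2 (1.42.0 here), was an alternative. Others were limma-voom (3.58.1), edgeR's legacy method, unstranded counts, TMM without genes over 1% of counts, size factors of DESeq2, no low-count filter, at least 10 counts in every library, and each clone left out. Differences in log2 CPM used a prior count of 2. Intervals on ratios cover counting error only, since read pairs carry no molecular identifiers. Gene positions came from RefSeq GRCm38.p6, the assembly of mm10, which matched 22542 of 24054 symbols directly and 1352 by a synonym. Exon lengths came from GENCODE vM21. The tests were tested on simulated counts with 4-fold changes only, so their power for the smaller ratios of the 10 genes is not known. Figures used Python 3.11.15 and matplotlib.

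The 10 genes, the limits of the stretch, the partner and marker lists and the alternatives were chosen with earlier results of these data known. Genes were named by a rule: the 10 genes, 2 tested genes on each side of each limit, the 3 highest and 3 lowest other genes of the stretch, Morc3, the gene with the smallest p and the direct partners in each list, list genes past the threshold in a test, and the 5 genes most like the 10. Ctgf, Gadd45b, Amotl2, Amotl1, Nuak2, Gpr83, Smco4, Arhgap42, Jrkl, Slc36a4, Sesn3, Scarna9, Panx1 and the genes at the level of Birc2 were named after their values were seen. Protein sequences and other data types of the study were not analysed here.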

Additional observations from a re-analysis of the deposited data

How the results depend on the processing

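Over 8 alternatives, 80 of 80 recomputed log2 fold changes of the 10 genes stayed above 0 (0.44 to 0.98), and all 10 genes stayed above wild type in every clone. Because the stretch was chosen from these ratios in the same libraries, only the range of the values is read from this. Their median log2 fold change was 0.61, and 0.59 to 0.63 with 1 clone left out. The median of the tested genes of the stretch was 0.57 with unstranded counts, 0.68 with no low-count filter, 0.58 with at least 10 counts in every library and 0.56 to 0.59 with 1 clone left out, and that of the genes beside the stretch was -0.01, and from -0.026 to -0.0020 with 1 clone left out. Against wild type, edgeR called 1 gene of all, 0 with at least 10 counts in every library, 0 with the legacy method, and limma-voom 0. DESeq2 called 65, with no adjusted p for 3858 genes. With 1 clone left out it was 0 to 420 genes, and 0 to 5 partners. The 420 and the 5 were without clone 3D. For clone 3D against the others, 172 genes passed, but 5 with unstranded counts, 3 with no low-count filter, 50 with DESeq2 and 67 with limma-voom. DESeq2 called 7 genes for clone 3C and 3 for clone 3M, where edgeR called 0. Calls of the 10 genes were examined only between clones, as given above. They were not tested against wild type, the contrast they were chosen from. Medians of the 9 partner lists lay between -0.07 and 0.11 over all alternatives, and 8 of 99 moved by more than their spread between clones. Why the counts of called genes moved was not tested. No paired analysis was possible because wild type is 1 library and shares no more than 1 replicate number with the clones. Depth limits Birc3, Vstm5 and other genes with few counts, and 1 wild-type library limits every ratio.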

Other observations

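The stretch also holds gene families that were all but silent in these cells. Of the matrix metalloproteinase (Mmp) genes, which encode enzymes that cut extracellular matrix and lie between Dcun1d5 and Tmem123, 10 are listed. None was tested, 6 were at 0 in every library, and the highest count of any in a library was 3. Summed over the 10 genes, wild type had 1 count, against 8, 3 and 1 for clones 3C, 3D and 3M. The olfactory receptor (Olfr) genes of the distal end number 6, of which 4 were at 0 in every library, with a highest count of 2 and sums of 0 in wild type against 0, 1 and 3 for the clones in the same order. At this depth no difference in these families was detectable, and their neighbours Dcun1d5 and Tmem123 had between 298 and 1070 counts in each library.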
